A study of Drosophila melanogaster with 6 samples.

Results

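The genes ttk, bab1, bab2 and lola encode transcription factors with a BTB domain, and they were picked by name from tables of RNA polymerase II (Pol II) changes in S2 cells. They are 4 of the 5524 genes in those tables and were chosen with their values known, so every value given for them is a description and none was tested here. S2 cells, a blood-cell-like line from Drosophila embryos, were treated with double-stranded RNA against BEAF (668 bp), against polybromo (Pbro, 493 bp) or against bacterial LacZ as control (835 bp). Each of the 2 additions of 150 µg preceded 2.5 days of culture at 25°C. PRO-seq, which maps the 3' ends of nascent RNA and so engaged Pol II on each strand, was run on nuclei of 2 biological replicates per treatment, 6 libraries in all. BEAF is an insulator protein that binds DNA near many promoters, and Pbro belongs to PBAP, a complex that remodels chromatin. RNAi lowers a protein without fully removing it, so each treated group models incomplete loss in 1 cell line. By the study's Western blots, most of the BEAF and most of the Pbro protein was depleted.

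All log2 fold changes and adjusted p-values below are the authors' deposited DESeq2 values for knockdown over LacZ RNAi. Calls, down or up, are the entries whose adjusted p was under 0.05, and unchanged entries are those for which it exceeded 0.9. Genes that fall in the gap, or that have no adjusted p, have no value here and are written as not listed. The deposited table holds no values per library and no errors, so the spread between replicates cannot be shown and the adjusted p alone carries the precision. Both knockdowns were set against the same LacZ libraries, so a chance deviation of those libraries would enter both. Of 12 blood cell markers used to check the cell line, 10 were listed in at least 1 comparison, while NimC1 and Nplp2 were listed in none. Listing shows that a marker had a usable adjusted p, not how strongly it was transcribed.

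BTB domains let proteins pair with themselves and with related partners, and in flies they often sit in transcription factors that set cell fate. Tramtrack, the product of ttk, is a zinc finger repressor known for blocking neuronal fate, for instance in the developing eye. The bric a brac genes bab1 and bab2 are neighbouring paralogs that pattern legs, ovaries and abdominal pigmentation. Lola, from longitudinals lacking, is a family of splice forms known for axon guidance, in which a shared BTB part is joined to different zinc fingers. Pol II commonly pauses just downstream of fly promoters before it enters the gene body, so the promoter-proximal window and the gene body can change separately.

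The 4 genes have 16 possible values in the 4 comparisons, of which 11 were listed, 4 as called and 7 as unchanged. All 4 calls lay in gene bodies. They were ttk down after BEAF RNAi, bab2 up after BEAF RNAi, and ttk and bab1 down after Pbro RNAi. The remaining 5 values were not listed, namely bab1 at the promoter in both knockdowns, bab2 at the promoter after Pbro RNAi, and lola in both regions after Pbro RNAi. In the gene body after BEAF RNAi the genes ranged from -0.45 to 0.76, and 2 of 4 were called, against 1.75% of all 4810 entries listed there. After Pbro RNAi the 3 genes listed in the body ranged from -1.25 to -0.16, and 2 were called, against 6.54% of 4127 entries. Since the genes were chosen for these calls, nothing can be read from these counts against the shares.

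**Figure D1:**
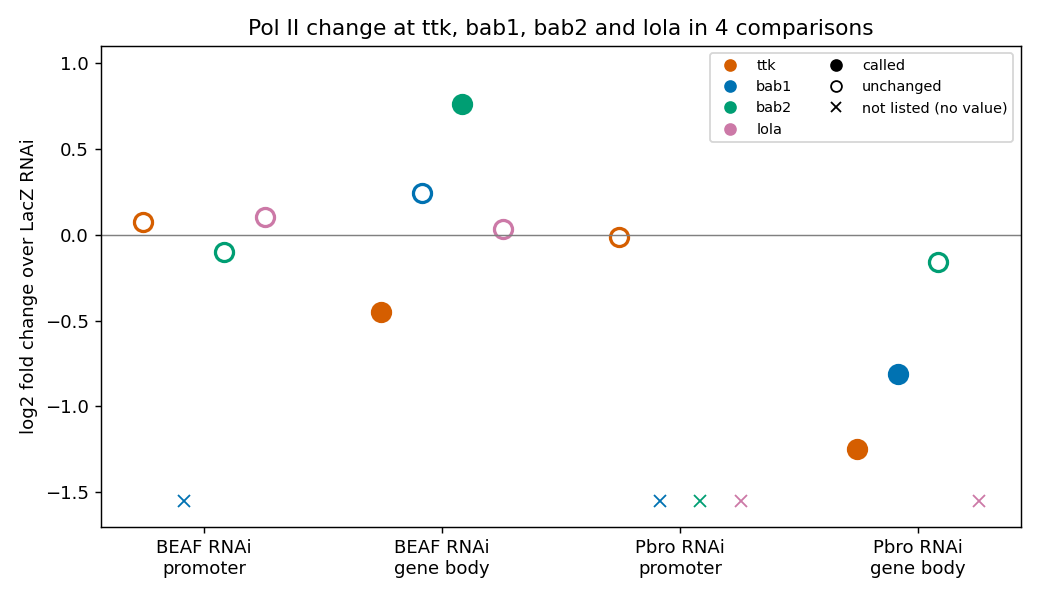
Log2 fold change over LacZ RNAi (vertical axis) of ttk, bab1, bab2 and lola in the 4 comparisons (horizontal axis). Filled points are called, open points unchanged and crosses at the bottom not listed, and the 4 filled points all lie in the gene body comparisons, from -1.25 for ttk to 0.76 for bab2.

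The tables hold a single transcript of each gene, with coordinates in the dm3 genome. They are ttk-RE on 3R from 27539591 to 27550549 (plus strand, 10959 bp), bab1-RB on 3L from 1036369 to 1101104 (minus strand, 64736 bp), bab2-RA on 3L from 1140449 to 1177274 (minus strand, 36826 bp) and lola-RR on 2R from 6429321 to 6430792 (minus strand, 1472 bp). Only 34 of the 5528 transcripts listed anywhere were longer than bab1 and 100 were longer than bab2. The ttk transcript was exceeded in length by 554 and the lola transcript by 4287. The value for lola thus covers a short stretch, and other transcripts of these genes were not analysed here.

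ttk was the member listed in all 4 comparisons and called in 2 of them. Its gene body Pol II fell by 1.25 on the log2 scale after Pbro RNAi (adjusted p = 8.08e-58), which leaves 42.1% of the LacZ level. The next lowest adjusted p among the 225 genes down in this comparison was 3.69e-51. The size of the change was less extreme than its adjusted p, since 43 of those genes fell further, and the median of the set was -0.82. Down calls made up 5.45% of the entries listed in that comparison. After BEAF RNAi the ttk body fell by 0.45 (adjusted p = 0.00929), to 73.3% of the LacZ level. Here ttk lay in the lower part of the called set, because 48 of the 64 down genes fell further and 38 had a lower adjusted p. Down calls made up 1.33% of the entries listed in the body after BEAF RNAi.

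**Figure D2:**
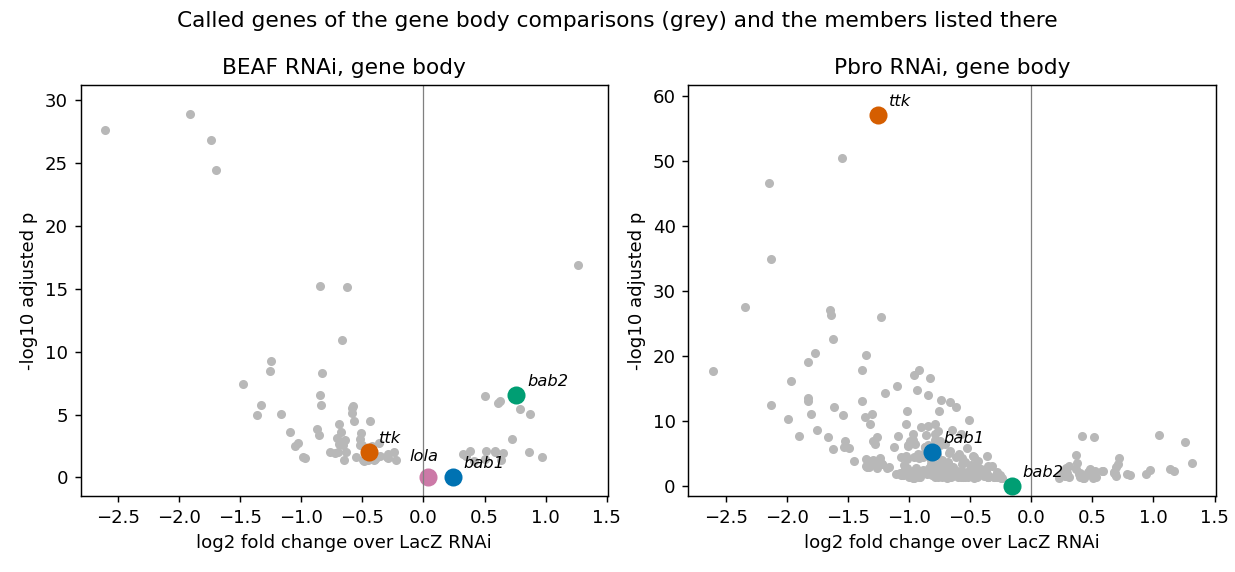
Gene body log2 fold change over LacZ RNAi (horizontal axis) against -log10 of the adjusted p (vertical axis) for called genes (grey) and the listed members (coloured), after BEAF RNAi (left) and Pbro RNAi (right). ttk has the highest point of the right panel, at a fold change of -1.25, and bab2 is among the called points on the right of the left panel, at 0.76.

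At the ttk promoter both knockdowns left values close to 0. The promoter-proximal value was 0.08 after BEAF RNAi (adjusted p = 0.953) and -0.01 after Pbro RNAi (adjusted p = 0.993). Promoter minus body was thus 0.52 after BEAF RNAi and 1.24 after Pbro RNAi, while the median over all entries listed in both regions was -0.02 and -0.01. Among the 1781 entries listed in both regions after Pbro RNAi, 20 had a larger difference of either sign than ttk. After BEAF RNAi 62 of 1817 did. Bodies called down with an unchanged promoter numbered 37 after Pbro RNAi, of which 2 fell further in the body than ttk. After BEAF RNAi they numbered 11, of which 5 fell further. Beside them, 62 down bodies had a down promoter and 1 an up promoter after Pbro RNAi, and 9 had a down promoter after BEAF RNAi. The rest of the 225 and 64 down bodies were not listed at the promoter. These differences between regions were not tested. The 2 regions come from the same libraries, and the smallest down call after Pbro RNAi was -0.54 at promoters against -0.24 in bodies.

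**Figure D3:**
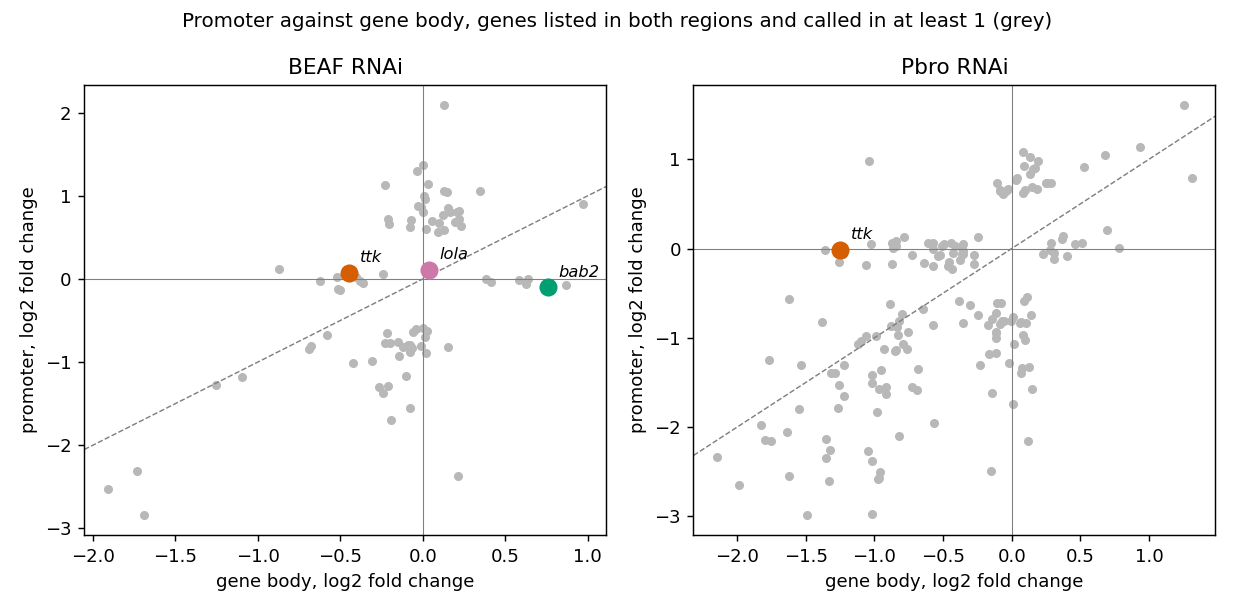
Gene body log2 fold change (horizontal axis) against promoter log2 fold change (vertical axis), both over LacZ RNAi, for genes listed in both regions and called in at least 1 (grey), with the members listed in both regions coloured and a dashed line at equal values. ttk lies left of 0 at promoter values of 0.08 and -0.01, and bab2 lies right of 0 in the BEAF panel at a promoter value of -0.10.

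The body of ttk was down in both knockdowns, as were 14 other genes. These 15 genes make 23.4% of the 64 down calls for BEAF RNAi, against 5.45% of all entries down after Pbro RNAi. They make 6.67% of the 225 for Pbro RNAi, against 1.33% of all entries down after BEAF RNAi. Of the 225, 76 had no body value after BEAF RNAi, and 3780 entries were listed in both bodies. The 64 and the 225 count genes whether or not the other body was listed, while 5.45% and 1.33% cover listed entries only. The shares are thus not over like sets. Both comparisons used the same LacZ libraries, and the overlap was not tested. By size of the fall, ttk was number 3 of the 15 after Pbro RNAi and number 13 after BEAF RNAi. Of the 15, 4 were also listed as unchanged at the promoter in both knockdowns, among them ttk, Pld and Oatp74D. By Euclidean distance over the 4 log2 fold changes, the phospholipase D gene Pld lay 0.44 from ttk, with body values of -0.62 for BEAF RNAi and -0.86 for Pbro RNAi. Oatp74D, an organic anion transporter gene, lay at 0.65, with -0.87 and -0.79. The latter fell further after BEAF than after Pbro RNAi, unlike ttk, whose body value dropped by a further 0.80 from BEAF to Pbro RNAi. No difference between the knockdowns was tested.

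bab2 was the member called up. Its gene body rose by 0.76 after BEAF RNAi (adjusted p = 2.83e-07), to 169% of the LacZ level. Among the 20 genes up in that comparison 1 had a lower adjusted p and 5 rose further, with a median of 0.62 over the set. Up calls made up 0.416% of the entries listed there. No other gene of the 20 was as long as bab2, and their median length was 4669 bp. The bab2 promoter was unchanged at -0.10 (adjusted p = 0.939), so promoter minus body was -0.86, and 25 of 1817 entries had a larger difference of either sign. Of the 20 up bodies, 7 had an unchanged promoter, bab2 among them, 1 had an up promoter and the rest were not listed at the promoter. At promoters after BEAF RNAi 2033 of all 2137 listed entries were unchanged, so an unchanged promoter was usual for any listed entry and is nothing particular to the up bodies. Of the 7, 1 rose further in the body than bab2, and their median promoter minus body was -0.64.

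After Pbro RNAi the bab2 body was listed as unchanged at -0.16 (adjusted p = 0.913), or 89.6% of the LacZ level. That value lies low among unchanged genes, with 116 of 3857 below it. The 20 bodies up after BEAF RNAi, bab2 included, were spread over the classes of the Pbro comparison, 8 as unchanged, 3 as down, 0 as up and 9 not listed. Over the 3 comparisons in which bab2 was listed, the nearest gene with the same calls was 18w, which encodes a receptor of the Toll family, at a distance of 0.17. The body values of 18w were 0.62 for BEAF RNAi and -0.06 for Pbro RNAi. Of the 3 candidates in all, Aatf lay at a distance of 0.46.

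bab1 lost gene body Pol II after Pbro RNAi. It fell by 0.81 (adjusted p = 5.71e-06), to 57.1% of the LacZ level. Among the 225 down genes 114 fell further and 76 had a lower adjusted p, so bab1 stood close to the median of the set, -0.82. Just 4 of the 225 were longer than bab1, and their median length was 5196 bp, against 2445 bp over all entries listed in that comparison. After BEAF RNAi the bab1 body was listed as unchanged at 0.24 (adjusted p = 0.9996), though 89 of the 4726 unchanged entries had a higher value. Of the genes down in the body after Pbro RNAi, 131 were unchanged in the body after BEAF RNAi, like bab1, 15 were down, 3 were up and 76 were not listed. In that group of 131 the BEAF value exceeded that of bab1 for 6. The nearest of the 130 other genes with these calls were Sgsh, the myogenic factor gene nau and CG10970, at distances of 0.03, 0.08 and 0.08 over 2 comparisons. Of these, nau had values of 0.30 (BEAF RNAi) and -0.85 (Pbro RNAi).

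The paralogs bab1 and bab2 lay on the same side of 0 in each knockdown but were called in different ones. After BEAF RNAi both bodies were above 0, bab2 as called and bab1 as unchanged, and bab2 was higher by 0.52. After Pbro RNAi both were below 0, bab1 as called and bab2 as unchanged, and bab2 was again higher, by 0.65. From BEAF to Pbro RNAi the body value dropped by 1.05 for bab1 and by 0.92 for bab2. No test of these differences could be made without values per library. The paralogs resemble each other in part of their sequence, and whether short reads were exchanged between them was not tested.

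Position sets these paralogs beside each other, with 39.3 kb between the 2 transcripts and the same strand for both. Around bab2, and leaving out bab1, the other 11 entries listed in the body after BEAF RNAi with a start site within 200 kb of its own ranged from -0.10 to 0.16, and 0 were called, against 1.75% of all entries. After Pbro RNAi the other 8 ranged from -0.12 to 0.12, and 0 were called, against 6.54%. The nearest listed neighbour on the far side of bab1 was the glucose transporter gene Glut1, 76.9 kb away and at -0.01 in the body after Pbro RNAi, where it was unchanged. On the far side of bab2 it was the mitotic kinesin gene Klp61F, 64.3 kb away, with body values of 0.06 (BEAF RNAi) and -0.01 (Pbro RNAi). Around ttk, 15 other entries were listed in the body in each knockdown, and 0 were called. With so few entries, counts of 0 beside shares of 1.75% and 6.54% say nothing particular about these stretches. They ranged from -0.21 to 0.19 after BEAF RNAi and from -0.11 to 0.12 after Pbro RNAi. The nearest listed transcripts on either side of ttk belong to pasha, a microRNA processing gene 92.4 kb away, and to eEF1alpha2, a translation elongation factor gene 13.7 kb away. pasha was unchanged wherever listed, at -0.04 in the body after Pbro RNAi, and eEF1alpha2 was listed in 1 comparison, at -0.15 at the promoter after BEAF RNAi.

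**Figure D4:**
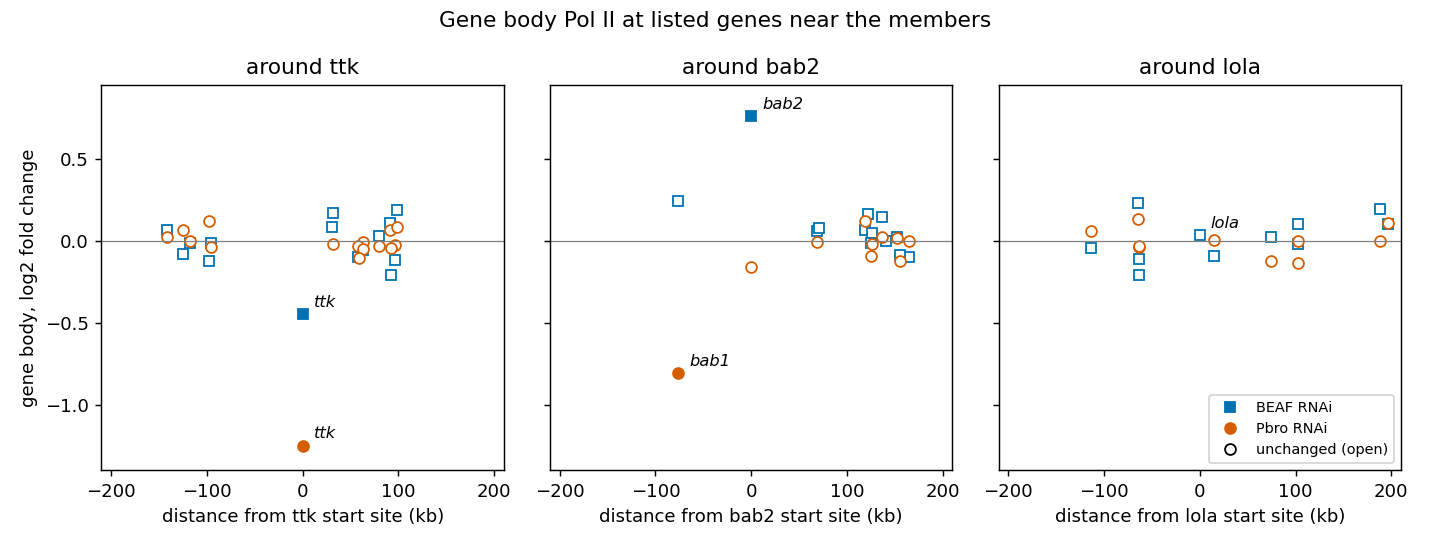
Gene body log2 fold change over LacZ RNAi (vertical axis) of listed genes within 200 kb of the start sites of ttk, bab2 and lola, against distance along the chromosome in kb (horizontal axis). Squares are BEAF RNAi, circles Pbro RNAi, filled symbols are called and open ones unchanged. The filled symbols are those of ttk at -0.45 and -1.25, bab2 at 0.76 and bab1 at -0.81.

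lola was called in none of the 2 comparisons that list it. It stood at 0.10 at the promoter after BEAF RNAi (adjusted p = 0.927) and at 0.04 in the body (adjusted p = 0.9996). Promoter minus body was 0.07, a difference exceeded in size by 1127 of the 1817 entries listed in both regions. Its absence after Pbro RNAi leaves any change there unknown, since its adjusted p lay between the limits or was missing. The neighbour psq, itself a BTB gene of the epigenetic silencing factor Pipsqueak, lies 14.6 kb from the lola-RR transcript on the opposite strand. psq was unchanged at -0.10 at the promoter and -0.09 in the body after BEAF RNAi, and at 0.00 in the body after Pbro RNAi. On the other side, 59.9 kb from the short lola-RR transcript, Pef was unchanged in the body, with -0.11 for BEAF RNAi and -0.04 for Pbro RNAi. Both distances are from that transcript and not from the ends of the lola gene. With 1732 other genes unchanged in both regions after BEAF RNAi, the closest to lola were Irp-1B, Polr1F and Nup93-1, all at distances under 0.01.

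The 4 genes were then set beside a list of 24 BTB genes, 15 of which were listed in at least 1 comparison. Of the 11 others, ab was the single gene with a call, 0.69 at the promoter after BEAF RNAi (adjusted p = 0.00620). abrupt, its product, is a zinc finger factor of dendrite and muscle attachment. At promoters after BEAF RNAi, 1 of 12 listed BTB genes was called, against 4.87% of all 2137 entries, and the list median was -0.06 against -0.00. At promoters after Pbro RNAi, 0 of 8 were called by the authors' DESeq2 test, against 15.1% of all 2510 entries, with a list median of 0.04 against -0.01. Unadjusted p-values were not used here. In gene bodies 0 of the 8 other BTB genes listed after BEAF RNAi were called, against 1.75% of all entries, and 0 of the 5 listed after Pbro RNAi, against 6.54%. Their values ranged from -0.17 to 0.17 and from -0.01 to 0.15, inside the narrow span that an adjusted p over 0.9 leaves to any entry. Among them were the insulator gene mod(mdg4), listed in the body after Pbro RNAi at 0.04, the sex determination factor gene fru, at 0.17 after BEAF RNAi, and the JAK-STAT target repressor gene ken, at -0.05 and -0.01. The remaining 9 genes, such as br, lolal and Cp190, were listed in no comparison.

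**Figure D5:**
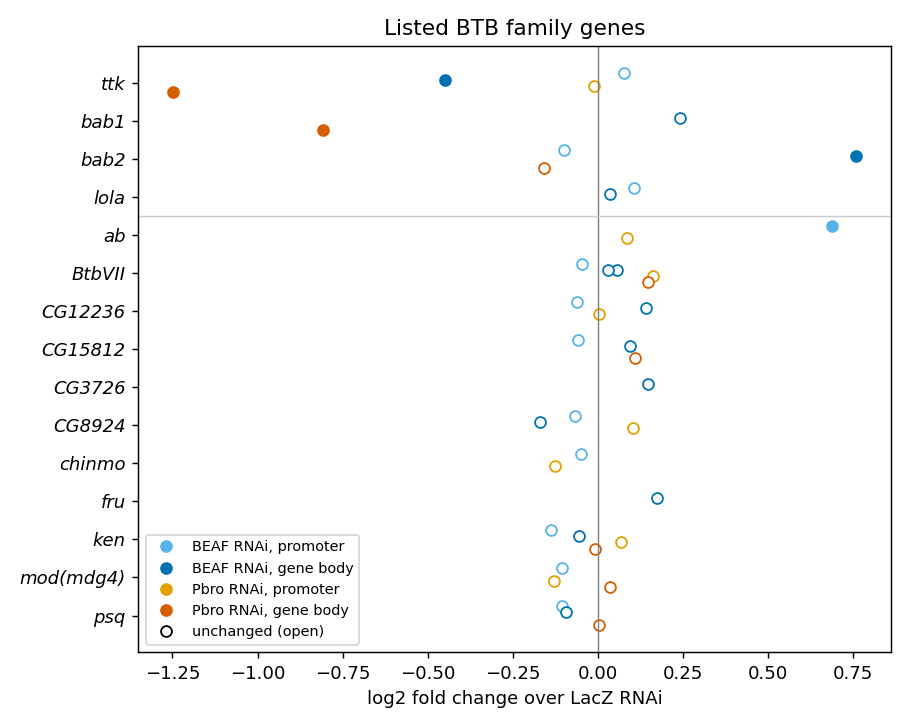
Log2 fold change over LacZ RNAi (horizontal axis) of the 15 listed BTB family genes (vertical axis), with 1 colour for each of the 4 comparisons, filled symbols for called and open symbols for unchanged values. The genes below the grey line hold 1 filled symbol, ab at 0.69, and BtbVII has 2 transcripts in the BEAF gene body comparison.

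A list of genes that act with ttk had 20 members, with partners in the degradation and function of Tramtrack and genes it is known to act on, and 12 of them were listed in at least 1 comparison. In gene bodies, where ttk was called, 0 of 10 listed genes were called after BEAF RNAi, against 1.75% of all entries, and 0 of 7 after Pbro RNAi, against 6.54%, with values from -0.23 to 0.11 and from -0.25 to 0.06. The medians were -0.05 and -0.01, against 0.01 over all entries in both comparisons. At promoters after Pbro RNAi 2 of 8 were called, both down, against 15.1% of all entries. These were gcm, a factor of glia and blood cells, at -3.35 (adjusted p = 1.23e-52), and numb, a Notch inhibitor gene, at -1.07 (adjusted p = 0.00649). The Egfr receptor gene, which signals upstream of Tramtrack degradation in the eye, was listed in bodies only, at -0.23 and -0.25, and the corepressor gene CtBP in all 4 comparisons, from -0.18 to 0.06.

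Few genes of the bab network were listed. Of 18 genes taken as inputs of bab or as genes active in leg or abdomen, 5 were listed, and at promoters after BEAF RNAi none was. After Pbro RNAi Dll, the homeodomain gene of distal limbs, was down at the promoter at -2.86 (adjusted p = 2.61e-32), and so was Lim1 at -0.85 (adjusted p = 0.00576), so that 2 of 3 listed there were called, against 15.1% of all entries. dsx, the sex determination factor that regulates bab in the abdomen, fell by 0.54 in the gene body after Pbro RNAi (adjusted p = 0.00829) and stood at 0.11 after BEAF RNAi, where it was unchanged. It was the 1 called of 2 listed in bodies after Pbro RNAi, against 6.54% of all entries, and 0 of 3 were called in bodies after BEAF RNAi, against 1.75%. The values of ap, a LIM homeodomain gene, were 0.10 in the body after BEAF RNAi, 0.06 at the promoter and 0.13 in the body after Pbro RNAi. In the 11-gene lola list, with partners such as psq and targets such as spir, 9 were listed and 1 was called. This was the Polycomb group gene Psc, up by 0.66 at the promoter after BEAF RNAi (adjusted p = 0.0166) and unchanged in the body at -0.20. It was the 1 called of 6 listed at promoters after BEAF RNAi, against 4.87% of all entries. In bodies 0 of 9 were called after BEAF RNAi, against 1.75% of all entries, and 0 of 6 after Pbro RNAi, against 6.54%.

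Of the 12 blood cell markers, 5 were listed at promoters after Pbro RNAi, where ttk was unchanged and bab1 was not listed. All 5 were down, from -3.35 for gcm to -0.81 for eater, against 15.1% of all entries called in either direction. The other markers had no value there, and the gcm value is the one already counted in the ttk list. In gene bodies after Pbro RNAi, where ttk and bab1 fell, 1 of 4 was down, the peroxidasin gene Pxn at -0.68, against 6.54% of all entries called, while the others lay between -0.07 and -0.05. After BEAF RNAi Ppn and He were up at the promoter at 0.72 and 0.94, 2 of 6 listed against 4.87% of all entries called, and 0 of 7 were called in the body, against 1.75%. Any part of these marker changes in the values of ttk, bab1 and bab2 was not tested.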

How the data were processed

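PRO-seq was carried out on 6 libraries, 2 for each of LacZ, BEAF and Pbro RNAi. Per the study's methods, the authors trimmed reads, aligned them to dm3 with Bowtie and counted reads near the promoter and within the body of genes that do not overlap. Versions and the scaling between libraries are not given in the sources used here. The 12 deposited sheets hold log2 fold changes and adjusted p-values, both computed by the authors with DESeq2 across all genes. These are the authors' own comparisons and are the only values the sheets carry, so they are given as deposited. A count test had been planned and was not possible, and no test was run. The sheets carry no depth, and the read totals that the study lists for each library were not used here. The sheets hold 5528 transcripts (entries) of 5524 genes, of which 5497 matched a Release 6 table of names, used for current symbols. The neighbours and distances given above come from the dm3 coordinates of the listed transcripts.

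Named genes are the 4 members, called members of the lists, up to 3 genes nearest in log2 fold change with the same calls in the comparisons that list the member, and the nearest listed gene on each side. Members and lists were chosen with earlier results of these data known. Some genes that this rule names are not reported here. Other genes were named as examples after their values were seen. The genes not listed have an adjusted p from 0.05 to 0.9 or none. Values were also centred on the median of all entries, or of the 200 entries nearest in length, and stricter call limits were tried. Protein and promoter sequences were not analysed here. Steps were run in Python 3.11.15 with pandas 2.3.3. A distance sort and a rank, written out apart from those steps, were checked on simulated data, and the steps themselves were not.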

Additional observations from a re-analysis of the deposited data

How the results depend on the processing

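Centring each comparison on the median of its entries, or on the 200 entries of most similar length, moved the 11 listed values of ttk, bab1, bab2 and lola by at most 0.01 and 0.06 on the log2 scale, and the 4 called values kept their sign. The uncalled ttk promoter value after Pbro RNAi went from -0.01 to 0.00 and 0.05. At an adjusted p under 0.01 the counts of called BTB genes stayed the same in all 4 comparisons. At an adjusted p under 0.001 the count after BEAF RNAi went from 1 to 0 at promoters, where ab was lost, and from 2 to 1 in bodies, since ttk was lost there. Asking for at least a 1.5-fold change lowered the count in bodies after BEAF RNAi from 2 to 1, again through ttk. Matching by the symbols of the sheets alone, or ranking likeness by the largest difference, gave the same counts and the same nearest genes. No paired analysis was possible because the sheets carry no values per library, and for the same reason leaving out a replicate, another normalization and a filter on low counts were not run. Depth limits per gene could not be stated from fold changes alone, and changes of genes not listed are unknown here.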
